A study of Mus musculus with 3 samples.

Results

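Amino acids enter and leave cells, and move in and out of lysosomes, through membrane carriers that are grouped into solute carrier families. The genes described here are those of the families Slc1, Slc3, Slc6, Slc7, Slc36, Slc38 and Slc43, chosen by gene symbol alone from the probe sets that name a single gene. They come to 58 genes with 118 probe sets, of 18194 genes with such a probe set. Slc38a8 and Slc38a11 belong to the same families and were not analysed here. All 58 symbols matched RefSeq (assembly GRCm38.p6) through their Entrez identifiers.

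The levels come from 3T3-L1 adipocytes, which are obtained by differentiating the mouse fibroblast line 3T3-L1 in culture, after exposure to glucose oxidase for 2 h. Glucose oxidase makes hydrogen peroxide from glucose and oxygen, and the study used it as an oxidative stress that makes adipocytes insulin resistant. Labelled cRNA made from the total RNA of these cells was hybridised to 3 Affymetrix arrays, replicates 1 to 3, all from treated cells. Arrays of untreated cells were not analysed here. The values below are therefore levels after treatment, without a fold change or a test of the treatment. All cells are of 1 established line, and it was not given whether the replicates were separate cultures, which leaves the possibility that the spread between arrays is technical. The number of arrays limits the precision.

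Cystine, the oxidised dimer of cysteine, is the main form of this amino acid outside cells. It enters through the exchanger of which Slc7a11 encodes the light chain (xCT) and Slc3a2 the heavy chain, in return for glutamate, and is then reduced to cysteine for the synthesis of glutathione, the peptide that removes peroxides. Slc3a2 also carries other light chains of the Slc7 family to the cell surface, where they exchange leucine, arginine and other amino acids. Both Slc7a11 and Slc3a2, like Slc38a2, are textbook targets of the transcription factor ATF4 in the response to amino acid shortage, and Slc7a11 is also a target of NRF2, the regulator of antioxidant genes.

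The bases upstream of the start sites of Slc7a11, Slc3a2 and Slc38a2 are shown because these genes encode the cystine exchanger and the amino acid carrier best known for induction by amino acid shortage, and because they differed in whether they were above background. The sequences are from RefSeq, assembly GRCm38.p6, read 5′ to 3′ on the strand of the gene and ending at the base before the start site. Capitals mark a match to TGATGNAA, the core of the amino acid response element bound by ATF4 with C/EBP proteins, or to TGACNNNGC, the core of the antioxidant response element bound by NRF2, on either strand.
Slc7a11, chr3:50443614-50443863, minus strand: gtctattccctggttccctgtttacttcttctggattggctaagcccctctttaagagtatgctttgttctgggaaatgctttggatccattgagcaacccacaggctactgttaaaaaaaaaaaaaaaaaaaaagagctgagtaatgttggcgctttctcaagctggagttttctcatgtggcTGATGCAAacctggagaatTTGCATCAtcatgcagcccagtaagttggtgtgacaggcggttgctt
Slc3a2, chr19:8713898-8714047, minus strand: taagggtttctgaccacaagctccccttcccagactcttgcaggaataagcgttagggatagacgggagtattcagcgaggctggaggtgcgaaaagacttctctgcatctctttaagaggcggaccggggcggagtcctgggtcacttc
Slc38a2, chr15:96699729-96699878, minus strand: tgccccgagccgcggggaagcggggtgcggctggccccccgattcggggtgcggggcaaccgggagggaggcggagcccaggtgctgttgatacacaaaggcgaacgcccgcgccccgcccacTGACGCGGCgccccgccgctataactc
The Slc7a11 window held TGATGNAA in both orientations, as TGATGCAA at bases 66 to 59 before the start site and as TTGCATCA, its reverse complement, at bases 47 to 40. The Slc38a2 window held TGACGCGGC, a match to the antioxidant core, at bases 27 to 19 before the start. No match to TGACNNNGC was found in the Slc7a11 window, none to TGATGNAA in the Slc38a2 window, and neither in the Slc3a2 window. Such an absence says only that these letters are not in the window. A match describes the letters and is not evidence of binding.

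Promoters were in the RefSeq table for 41 of the 58 genes, 62 promoters in all, and 250 bases before each start were searched on both strands. TGATGNAA was found in 4 of the 62 promoters, belonging to Slc7a11, Slc7a7 and Slc6a21, against 3.45% of 32851 promoters of all genes. None of these 3 genes was above background in the arrays. TGACNNNGC was found in 9 of the 62 promoters, belonging to 8 genes, against 10.2% of all promoters. Of the 8 genes, Slc7a1, Slc7a6, Slc6a9, Slc38a2 and Slc43a1 were above background and Slc6a11, Slc6a13 and Slc6a16 were not. For comparison, 46.6% of the 58 transporter genes and 55.7% of all genes were above background. The genes with a match are too few to relate matches to levels, and no such link was tested.

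Values are log2 of the deposited intensity, and each gene is represented by the probe set whose mean over the arrays was highest. Background was set at 7.50, the 95th percentile of the mean log2 intensity of 83 probe sets that detect receptors of smell and taste, including vomeronasal receptors. A gene was above background when any of its probe sets exceeded this in all 3 arrays. A probe set that is not above background gives only an upper bound on its transcript, and intensities of different genes are not compared, because probe sets differ in how strongly they bind. Array medians were 127.6, 126.9 and 126.9 on the linear scale in replicates 1, 2 and 3.

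Preadipocytes are named in the tissue label, but the growth protocol and the methods describe cells differentiated into adipocytes. All 8 measured adipocyte markers were above background, among them the adiponectin gene Adipoq at a log2 intensity of 14.49 ± 0.03 (SD, n = 3). Of 6 preadipocyte and fibroblast markers 5 were above it too, with the preadipocyte gene Dlk1 at 13.24 ± 0.10 (SD, n = 3), and Cd34 was not. Markers of other cell types above background were Csf1r of 5 macrophage genes, Kdr of 4 endothelial genes, Rbfox3 of 7 neuron and glia genes, and Epcam and Lrp2 of 6 kidney and gut epithelium genes. In bulk RNA of this kind, fewer cells of a type and less RNA per cell cannot be told apart.

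Of the 58 transporter genes, 27 were above background, which is 46.6%, against 55.7% of all 18194 genes and 54.5% of the 257 other Slc genes. Of their 118 probe sets 47 were above background, against 46.5% of all 34958 probe sets with 1 gene. The share differed by family. All 3 Slc43 genes, 7 of 9 Slc38 genes and 3 of 4 Slc36 genes were above background, as were 3 of 7 Slc1 genes, 1 of 2 Slc3 genes, 6 of 18 Slc6 genes and 4 of 15 Slc7 genes. These shares describe the arrays, and no test was made of the difference between families. The 31 genes not above background had mean log2 intensities between 4.15 and 7.54.

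**Figure D1:**
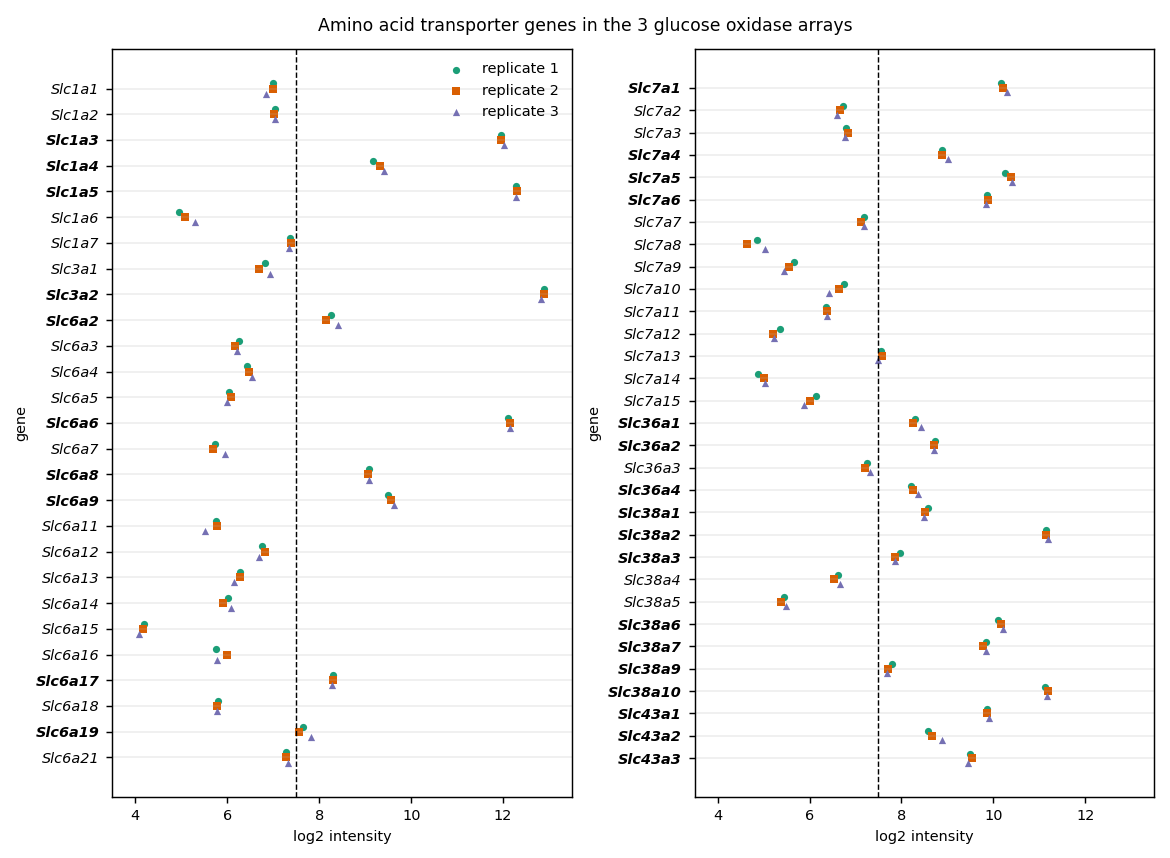
Log2 intensity (horizontal axis) of the 58 amino acid transporter genes (vertical axis) in replicates 1, 2 and 3 of glucose oxidase-treated 3T3-L1 adipocytes, each gene by the probe set chosen for it. The dashed line is the background level of 7.50 and the 27 genes in bold exceeded it in all 3 arrays, among them Slc3a2 at 12.82 to 12.88, whereas Slc7a11 was at 6.36 to 6.38.

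The cystine exchanger was above background in its heavy chain and not in its light chain. Slc7a11, which encodes xCT, had log2 intensities of 6.36, 6.38 and 6.37 in replicates 1, 2 and 3, a mean of 6.37 ± 0.01 (SD, n = 3), from probe set 1420413_at. Its other probe set, 1443536_at, read 5.43, 5.47 and 5.48. All 6 readings lay below the background level of 7.50, and the 3 arrays differed little. Slc3a2, the shared heavy chain, read 12.88, 12.88 and 12.82 from its only probe set, a mean of 12.86 ± 0.04 (SD, n = 3). All 3 arrays lay far above background, with replicate 3 the lowest.

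The other routes by which cystine or cysteine can enter were measured beside it. Slc3a1 encodes the heavy chain rBAT, which with Slc7a9 takes cystine back up in the kidney. It read 6.81, 6.69 and 6.93 and was not above background, and neither was Slc7a9 at 5.65, 5.55 and 5.44. Slc7a13, a renal carrier of aspartate, glutamate and cystine, lay at the background itself, with 7.56 and 7.57 above it in replicates 1 and 2 and 7.48 below it in replicate 3. It was the transporter gene nearest to the limit, and its other probe set averaged 4.09. Slc1a1, a glutamate carrier that also takes up cysteine, read 7.00, 6.99 and 6.84 and was not above background on any of its 3 probe sets.

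Both exchangers of alanine, serine and cysteine were above background. Slc1a4 (ASCT1) read 9.17, 9.31 and 9.40, a mean of 9.29 ± 0.12 (SD, n = 3), and all 3 of its probe sets were above background. Slc1a5 (ASCT2), which also carries glutamine, read 12.28, 12.31 and 12.27, a mean of 12.29 ± 0.02 (SD, n = 3). For Slc1a4 replicate 1 was the lowest and replicate 3 the highest, whereas the arrays of Slc1a5 nearly coincided. The other probe set of Slc1a5 was not above background, at a mean of 7.27.

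Of the 5 high-affinity glutamate carriers of the Slc1 family, only Slc1a3 was above background. Slc1a3, known in glia as GLAST, read 11.95, 11.96 and 12.01, a mean of 11.97 ± 0.03 (SD, n = 3). Of its 6 probe sets 5 were above background, with means from 8.41 to 11.97, and the sixth averaged 5.65. Slc1a2 read 7.04, 7.01 and 7.03, and none of its 5 probe sets was above background. Slc1a6, a carrier of cerebellar neurons, read 4.95, 5.08 and 5.29. Slc1a7, a carrier of the retina, read 7.37, 7.40 and 7.35, just under background. The glial markers Gfap at 6.49 ± 0.15 (SD, n = 3) and Aqp4 at 7.16 ± 0.04 (SD, n = 3) were not above background beside Slc1a3.

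Among the light chains that exchange neutral amino acids, 2 of 8 were above background. Slc7a5 (LAT1), the exchanger of leucine and other large neutral amino acids, read 10.25, 10.38 and 10.40, a mean of 10.34 ± 0.08 (SD, n = 3). Slc7a6, which exchanges arginine for neutral amino acids, read 9.86, 9.89 and 9.83, a mean of 9.86 ± 0.03 (SD, n = 3), and its other probe set was above background as well. Replicate 1 was the lowest for Slc7a5, whereas the arrays of Slc7a6 were close together.

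The other 6 neutral light chains were not above background. Slc7a7, the relative of Slc7a6 in kidney, gut and macrophages, read 7.19, 7.13 and 7.18. Slc7a8 (LAT2) read 4.87, 4.63 and 5.02, far under background in all 3 arrays. Slc7a10, a serine and glycine exchanger known from brain and from white adipocytes, read 6.74, 6.63 and 6.43. Each of these genes had all of its probe sets below the background limit. Slc7a12 read 5.37, 5.21 and 5.23 and Slc7a15 read 6.15, 6.02 and 5.88, each from its only probe set, and Slc7a9 was given above with Slc3a1.

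Of the 5 carriers grouped as cationic, 2 were above background. Slc7a1 (CAT1), the main arginine and lysine carrier of many cells, read 10.16, 10.20 and 10.30, a mean of 10.22 ± 0.07 (SD, n = 3). A further probe set of Slc7a1 read 10.00, 10.07 and 10.18, again highest in replicate 3, and the remaining one was not above background at a mean of 5.99. Slc7a4, a relative of the cationic carriers whose own transport is not established, read 8.87, 8.87 and 9.00, a mean of 8.92 ± 0.08 (SD, n = 3). Its other probe sets averaged 5.67 and 7.13 and were not above background, so the call for Slc7a4 rested on 1 of 3 probe sets. Slc7a2, Slc7a3 and Slc7a14 were not above background, with means of 6.67, 6.80 and 4.97.

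The Slc38 family holds the sodium-coupled carriers of glutamine, alanine and other small neutral amino acids, and 7 of its 9 genes were above background. Among the system A carriers, Slc38a2 (SNAT2) read 11.15, 11.15 and 11.18, a mean of 11.16 ± 0.02 (SD, n = 3), and 2 of its 3 probe sets were above background. Slc38a1 read 8.58, 8.51 and 8.50, a mean of 8.53 ± 0.05 (SD, n = 3), with its other probe set at 4.48. The arrays nearly coincided for Slc38a2 and differed by under 0.1 for Slc38a1. Slc38a4, the system A carrier best known in liver, read 6.62, 6.53 and 6.65 and was not above background on either probe set. Of the system N carriers, which also move glutamine out of cells, Slc38a3 read 7.97, 7.85 and 7.85, a mean of 7.89 ± 0.07 (SD, n = 3), with its other probe set at 6.47, and Slc38a5 was not above background at 5.44, 5.38 and 5.49.

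The Slc38 genes that act in the lysosome, or whose role is less well known, were all above background on at least 1 probe set. Slc38a7, a lysosomal glutamine carrier, read 9.83, 9.76 and 9.84, a mean of 9.81 ± 0.04 (SD, n = 3). Slc38a9, the lysosomal arginine sensor of the growth kinase complex mTORC1, read 7.80, 7.71 and 7.68, a mean of 7.73 ± 0.06 (SD, n = 3). Only 1 of the 7 probe sets of Slc38a9 was above background, and the others averaged 5.67 to 7.39. Slc38a6 read 10.09, 10.16 and 10.21, a mean of 10.15 ± 0.06 (SD, n = 3), with its other probe set at 5.93. Slc38a10 read 11.12, 11.19 and 11.17, a mean of 11.16 ± 0.04 (SD, n = 3). For Slc38a10, 6 of 7 probe sets were above background.

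The proton-coupled carriers of the Slc36 family move small amino acids out of lysosomes or into cells, and 3 of the 4 were above background. Slc36a1 read 8.30, 8.24 and 8.42, a mean of 8.32 ± 0.09 (SD, n = 3). Slc36a2, used elsewhere as a surface marker of brown and beige adipocytes, read 8.73, 8.70 and 8.71, a mean of 8.72 ± 0.02 (SD, n = 3). Slc36a4 read 8.20, 8.25 and 8.36, a mean of 8.27 ± 0.08 (SD, n = 3). Replicate 3 was the highest for Slc36a1 and Slc36a4, and the arrays of Slc36a2 nearly coincided. Slc36a3 read 7.24, 7.22 and 7.31 and was not above background.

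All 3 facilitators of the Slc43 family were above background. Slc43a1 (LAT3), which carries leucine and other large neutral amino acids without an ion gradient, read 9.86, 9.86 and 9.91, a mean of 9.87 ± 0.03 (SD, n = 3). Slc43a2 (LAT4), its closest relative, read 8.58, 8.66 and 8.89, a mean of 8.71 ± 0.16 (SD, n = 3). Slc43a3, which is known as a carrier of purine bases rather than amino acids, read 9.49, 9.53 and 9.46, a mean of 9.49 ± 0.04 (SD, n = 3). Slc43a2 had the largest spread of the 27 genes above background, with replicate 3 the highest, and 1 of its 3 probe sets was above background.

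The Slc6 family couples transport to sodium and, in many of its members, to chloride, and 6 of its 18 measured genes were above background. Slc6a6, the taurine carrier, read 12.10, 12.14 and 12.16, a mean of 12.13 ± 0.03 (SD, n = 3), and all 4 of its probe sets were above background. Slc6a8, the creatine carrier, read 9.08, 9.07 and 9.09, a mean of 9.08 ± 0.01 (SD, n = 3). Slc6a9 (GlyT1), a glycine carrier, read 9.49, 9.55 and 9.62, a mean of 9.56 ± 0.07 (SD, n = 3). Both probe sets of Slc6a8 and both of Slc6a9 were above background. The carriers of GABA and betaine in the same branch, Slc6a11, Slc6a12 and Slc6a13, were not above background, at means of 5.68, 6.76 and 6.23.

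The Slc6 genes above background also included 3 that are best known from neurons, kidney or gut. Slc6a2, the noradrenaline carrier, read 8.26, 8.14 and 8.40, a mean of 8.26 ± 0.13 (SD, n = 3), on 1 of 4 probe sets. Slc6a17, a vesicle carrier of neutral amino acids in neurons, read 8.30, 8.29 and 8.27, a mean of 8.29 ± 0.02 (SD, n = 3), on 2 of 3 probe sets. Slc6a19, the neutral amino acid carrier of kidney and gut, read 7.65, 7.56 and 7.83, a mean of 7.68 ± 0.14 (SD, n = 3), on 1 of 2 probe sets. All 3 arrays of Slc6a19 lay close to the background limit. Beside these, 1 of 7 neuron and glia markers was above background, with the other 6 at means of 4.26 to 7.41, and 2 of 6 kidney and gut markers were, with the other 4 at means of 3.81 to 6.37. The part of such cell types in these values was not tested. The dopamine and serotonin carriers Slc6a3 and Slc6a4 were not above background, at 6.22 and 6.48, and the remaining Slc6 genes, Slc6a5, Slc6a7, Slc6a14, Slc6a15, Slc6a16, Slc6a18 and Slc6a21, had means between 4.15 and 7.29.

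Probe sets of the same gene often differed in whether they were above background. Of the 27 genes, 8 had 1 probe set, 5 had all of several probe sets above background, namely Slc1a4, Slc6a6, Slc6a8, Slc6a9 and Slc7a6, and 14 had some. For 9 of these 14 the call rested on 1 probe set, namely Slc1a5, Slc6a2, Slc6a19, Slc7a4, Slc38a1, Slc38a3, Slc38a6, Slc38a9 and Slc43a2. With the median of the probe sets as the level, Slc6a2, Slc6a19, Slc7a4, Slc38a1, Slc38a3, Slc38a9 and Slc43a2 were no longer above background, leaving 20 genes, against 45.2% of all genes. Leaving out the 9 probe sets whose suffix marks possible cross-hybridisation kept the same 27, against 54.5% of all genes.

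**Figure D2:**
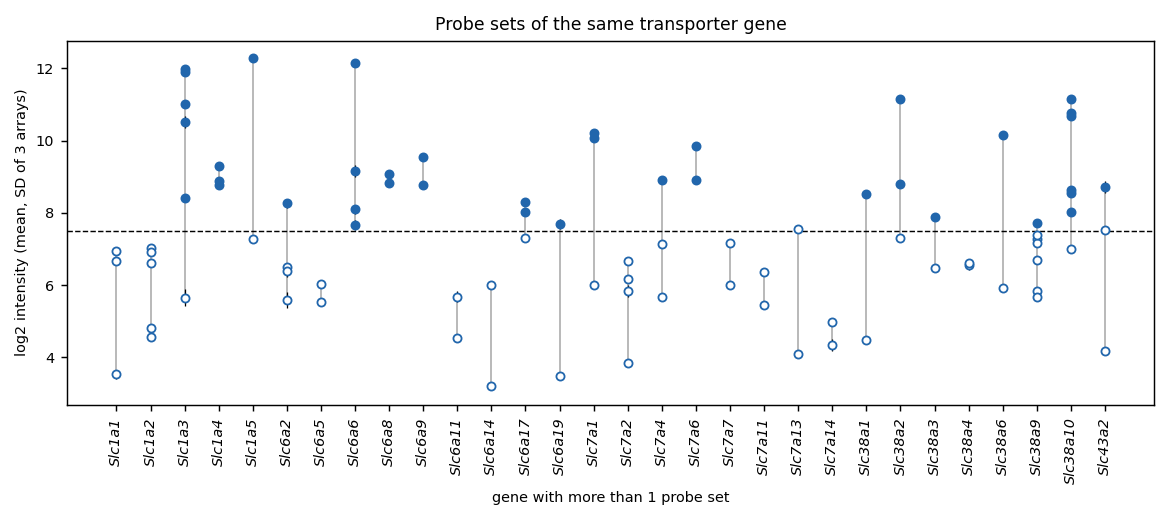
Mean log2 intensity (vertical axis, bars are the SD of 3 arrays and are often smaller than the symbol) of every probe set of the 30 transporter genes with more than 1 probe set (horizontal axis). Filled symbols were above the background of 7.50 (dashed line) in all 3 arrays, and for genes such as Slc1a5 and Slc38a6 1 symbol is filled and the other is open, whereas both probe sets of Slc7a11 are open.

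Where the background was set mattered for few of these genes. At the 99th percentile of the receptor probe sets, a log2 intensity of 8.05, 24 of the 58 genes were above background, against 47.8% of all genes, and Slc6a19, Slc38a3 and Slc38a9 were lost. With 67 probe sets for keratin-associated proteins and defensins as the background, at 7.91, the same 3 genes were lost, against 49.7% of all genes. At the 90th percentile, 7.33, Slc1a7 and Slc7a13 were gained, giving 29 genes, against 58.3% of all genes. Under all of these settings and those for the probe sets, 20 genes were above background, and 29 genes, Slc7a11 among them, were above it under none. The matching counts over all genes were not made, so these counts are not set against genes in general.

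The spread between the arrays was small and close to that of genes in general. The median SD of the 58 genes was 0.0611 on the log2 scale, against 0.0592 for all genes, and that of the 27 genes above background was 0.0472, against 0.0484 for the 10136 genes above background. Without replicate 3 the median SD of the 58 genes was 0.0392. That SD is taken over fewer arrays, so it cannot be set against the values above, and its counterpart over all genes is not given. Of the 27 genes 4 had an SD over 0.1, namely Slc1a4, Slc6a2, Slc6a19 and Slc43a2, against 8.68% of all genes above background. Slc6a8 had the smallest SD among the 27 and Slc43a2 the largest.

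**Figure D3:**
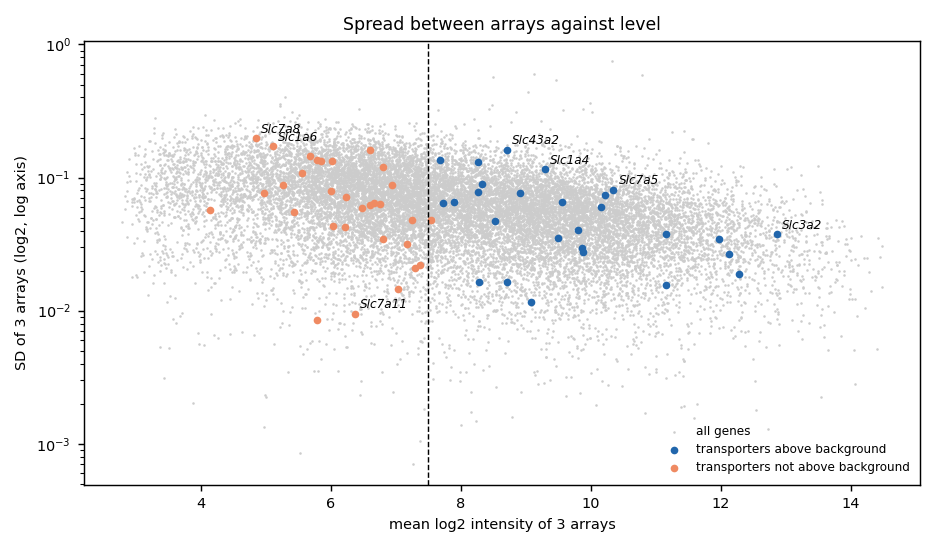
SD between the 3 arrays (vertical axis, log scale) against the mean log2 intensity (horizontal axis) for all 18194 genes (grey) and for the transporter genes above (blue) and not above (orange) background, whose level is the dashed line. The transporter genes lie within the cloud of all genes, with median SDs over the 3 arrays of 0.0611 and 0.0592. Without replicate 3 the median for the transporter genes was 0.0392, from fewer arrays and without a matching value for all genes. Among the transporter genes above background Slc43a2 has the largest SD at 0.16.

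The transporter genes tended to read highest in replicate 3. Of the 27 above background, 17 were highest in replicate 3, against 40.5% of all genes above background, 6 in replicate 1, against 23.9%, and 4 in replicate 2, against 35.5%. The departures were small. The median difference of replicate 3 from replicate 1 was 0.0520 on the log2 scale, positive in 18 of 27 genes, against 0.0198, positive in 5962 of 10136, over all genes above background. In 10 genes more than 1 probe set was above background. Within each of Slc6a8, Slc6a17, Slc7a1, Slc7a6 and Slc38a2, these probe sets were highest in the same array, and within the other 5 genes they were not. The matching count over all genes was not made, so it cannot be said whether such agreement is usual on these arrays. No test was made of these counts, since the arrays belong to 1 group.

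Genes for cysteine and glutathione, listed together with some for glutamate and thioredoxin, were mostly above background beside Slc7a11. Of the 31 measured genes of this list, which also covers the breakdown of glutathione, 25 were above background, against 55.7% of all genes. This list and the related lists below were chosen with earlier results of these data known, so their shares are descriptive only. Gclc and Gclm, the subunits of the enzyme that begins glutathione synthesis, averaged 9.72 ± 0.08 (SD, n = 3) and 10.96 ± 0.14 (SD, n = 3), and Gss, which completes it, averaged 9.11 ± 0.06 (SD, n = 3). Gclm read 10.82, 10.95 and 11.09 and was highest in replicate 3. Chac1, which degrades glutathione, averaged 11.67 ± 0.03 (SD, n = 3), and Cdo1, which oxidises cysteine toward taurine, 12.57 ± 0.05 (SD, n = 3).

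Cells can also make cysteine from methionine. Cth, which forms cysteine in the last step of this route, read 9.47, 9.61 and 9.48 and was above background, whereas Cbs, which acts just before it, read 6.94, 6.94 and 6.89 and was not. Glul, which makes glutamine from the glutamate that carriers such as Slc1a3 bring in, averaged 11.97 ± 0.06 (SD, n = 3). The others not above background were Gadl1, Ggt6, Ggt7, Anpep and Dpep3, with means of 6.35, 7.38, 6.91, 7.19 and 3.76.

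Of 36 measured genes of the amino acid response, the programme in which the kinase GCN2 and ATF4 raise carriers and synthetic enzymes, 35 were above background, against 55.7% of all genes. Atf4 itself read 12.88, 12.93 and 12.89, and its targets Asns, Trib3 and Ddit3 averaged 12.38 ± 0.01, 12.15 ± 0.04 and 12.17 ± 0.03 (SD, n = 3). Psat1 and Phgdh, which make serine, averaged 12.13 ± 0.06 and 12.38 ± 0.01, and Sesn2, a leucine sensor, 10.57 ± 0.06 (SD, n = 3). Eif2ak4, which encodes GCN2, averaged 7.77 ± 0.05 (SD, n = 3), and 6.78 by the median of its probe sets. The exception was Fgf21, a secreted hormone, at 6.68, 6.82 and 6.70. Of some carriers regarded as ATF4 targets, Slc3a2, Slc7a5, Slc7a1 and Slc38a2 were above background with these genes and Slc7a11 was not. They are examples, and carriers regarded as ATF4 targets were not counted as a list.

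**Figure D4:**
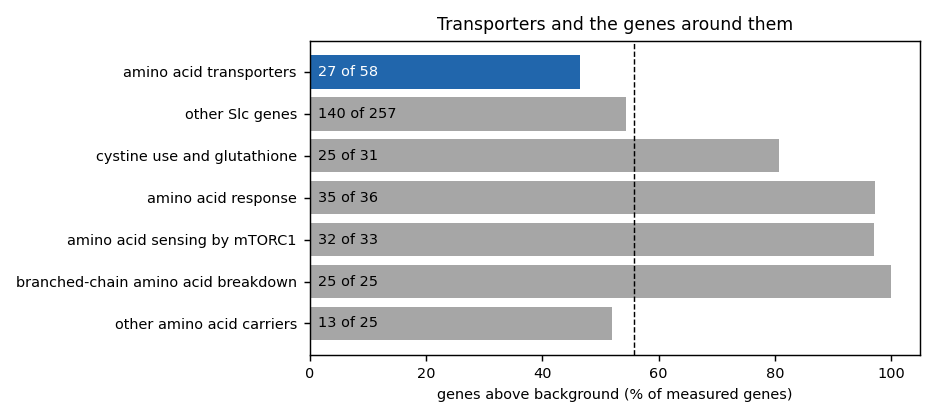
Share of measured genes above background (horizontal axis, %) for the 58 amino acid transporter genes (blue), the other Slc genes and the lists of related genes (grey), with the counts inside the bars. The dashed line is the 55.7% of all genes, and the transporter genes lie at 27 of 58 while the amino acid response lies at 35 of 36.

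Imported amino acids are sensed by mTORC1 at the lysosome, and 32 of 33 measured genes of this machinery were above background, against 55.7% of all genes. Mtor averaged 9.45 ± 0.05, Rptor 9.63 ± 0.07, Rragc 12.44 ± 0.04 and the sestrins Sesn1 and Sesn3 9.93 ± 0.09 and 9.93 ± 0.05 (SD, n = 3). Rraga read 9.78, 9.83 and 10.08, a mean of 9.90 ± 0.16 (SD, n = 3), highest in replicate 3 as Slc43a2 was. Castor1, an arginine sensor like Slc38a9, averaged 7.91 ± 0.10 (SD, n = 3), and Rragd was not above background at 4.71, 4.57 and 4.34. By the median of its probe sets Rptor was at 6.69 and not above background.

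All 25 measured genes for the breakdown of branched-chain amino acids, substrates of Slc7a5, Slc43a1 and Slc43a2, were above background, against 55.7% of all genes. Bcat2, the mitochondrial aminotransferase of most tissues, averaged 10.60 ± 0.07, and the dehydrogenase subunits Bckdha, Bckdhb and Dbt 11.24 ± 0.03, 11.79 ± 0.04 and 10.58 ± 0.11 (SD, n = 3). Slc25a44, which brings these amino acids into mitochondria, averaged 10.38 ± 0.07 (SD, n = 3). Bcat1, the cytosolic aminotransferase, averaged 7.62 ± 0.02 (SD, n = 3) and was at 7.45, under background, by the median of its probe sets.

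Carriers of amino acids and peptides from other families were above background in 13 of 25 measured genes, a share of 52% that is near the 55.7% of all genes. Those that handle cystine or glutathione inside the cell were among the 13. The lysosomal cystine exporter Ctns read 7.84, 7.96 and 8.00, and Mfsd12, which brings cysteine into lysosomes and melanosomes, read 11.17, 11.26 and 11.24. Slc25a39, the mitochondrial glutathione carrier, averaged 13.17 ± 0.08 (SD, n = 3). Slc66a1, a lysosomal exporter of lysine and arginine, averaged 9.06 ± 0.06, Slc25a38, a mitochondrial glycine carrier, 9.39 ± 0.04, and Slc16a10, a carrier of aromatic amino acids, 8.05 ± 0.08 (SD, n = 3). By the median of its probe sets Slc16a10 was at 6.62 and not above background. Not above background were Slc6a20a, Slc6a20b, Slc15a1, Slc15a2, Slc15a3, Slc17a6, Slc17a7, Slc32a1, Slc25a2, Slc25a13, Slc25a18 and Cltrn, with means between 3.43 and 7.35.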

How the data were processed

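RNA of 3 samples of glucose oxidase-treated 3T3-L1 adipocytes was measured on Affymetrix mouse arrays with 45101 probe sets. The authors corrected the background and normalized by RMA in affyPLM and deposited probe set intensities, which are on a linear scale. The version, the arrays normalized together and any later scaling are not given in the sources used here. Log2 was taken of each intensity as deposited. In the platform annotation, 34958 probe sets named 1 gene, 932 several and 9211 none, and those naming 1 gene were used.

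All samples formed 1 group, so values are given per array and as mean ± SD (n = 3), with no test between groups. All transporter genes are accounted for. Values per array are given for those above background and for the carriers of cystine, cysteine and glutamate and the exchanger light chains, and ranges or means for most others. Of the related lists, selected genes and all genes not above background are named. The genes and lists were chosen with earlier results of these data known. Alternatives were the 99th and 90th percentiles, another background gene set, the median of probe sets, fewer probe sets, centring, quantile normalization and leaving out each array. The calculation was tested on simulated data with 1 probe set per gene, and calls were checked only for genes well away from background. Calls near background, and the rule for genes with several probe sets, were not tested in this way. Python 3.11.15, pandas 2.3.3, numpy 2.4.6 and matplotlib 3.10.9 were used.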

Additional observations from a re-analysis of the deposited data

How the results depend on the processing

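The count of transporter genes above background was 20 to 29 under the alternatives for the background and the probe sets, 27 with each array centred on its median, and 27 to 28 when each array was left out in turn. Without replicate 3, Slc7a13 was gained. The median SD of the 58 genes, 0.0611, was 0.0600 with the median of probe sets, 0.0604 with centred arrays, 0.0584 after quantile normalization, and 0.0392 to 0.0597 without each replicate. It was lowest, at 0.0392, without replicate 3. An SD taken without a replicate is over fewer arrays and is not directly comparable with one over all of them. The counts of the related lists stayed within 1.5 times the values given. At the 99th percentile, and with the median of probe sets, the neuron and glia markers above background fell from 1 to 0 and those of kidney and gut epithelium from 2 to 1. With the median of probe sets, 15 of the 58 levels moved by more than 1.5-fold. The cause of these shifts was not tested. No paired analysis was possible because there is a single group of arrays. Signal near the array background limits what can be said of low transcripts, and the 31 genes not above it have an upper bound only.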
